A study of Xenopus tropicalis with 12 samples.

Results

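A set of 160 genes of the tadpole intestine, out of 19921 in the count table, was low in the libraries labelled T3WT and close to level in the other comparison of hormone treatment. They are called T3WT-low genes here. They were chosen by their own expression values. The rule took the mean CPM of each group (counts scaled to library size, here with edgeR's TMM factors) and compared the means as log2 ratios after adding 0.5 CPM. A gene was taken if its highest group mean was at least 2 CPM, its T3WT to contWT ratio was at most -1, its T3Homo to contHomo ratio was under 0.3 in size, and its contHomo to contWT ratio was above -0.5. Of the 10677 genes at the level minimum, 485 passed the first ratio. The second ratio left 205 of these and the third left 160, which is 1.5% of the genes at the level minimum. Of the genes dropped by the second ratio, 260 were lower in T3Homo than in contHomo and 20 were higher.

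The libraries came from whole intestine of Xenopus tropicalis tadpoles, a frog in which thyroid hormone drives metamorphosis. All tadpoles had the same parents and were labelled as stages 52 to 54. By the column labels, T3Homo was TRα(-/-) with T3, contHomo was TRα(-/-) without T3, T3WT was wild type with T3 and contWT was wild type without T3. T3, the active thyroid hormone, was given at 10 nM for 18 h. Each group had 3 libraries. The series text calls these technical replicates of one RNA sample merged from several tadpoles, so every SD and SE below measures the spread between libraries of a pool, not between animals. The allele that removes TRα is not given in the sources used here.

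The sample titles and treatment labels name 6 of the 12 libraries differently. There, contHomo is described as T3-treated wild type, and T3WT as untreated TRα(-/-). By the column labels the chosen genes are lower with T3 in wild type and nearly level with T3 in TRα(-/-). By the titles they are lower in TRα(-/-) than in wild type when both lack T3, and nearly level between the genotypes when both have T3. The table holds gene identifiers without names, and 0 of them matched the reference gene table, so neither the receptor gene nor known hormone targets or cell markers could be read to check the labels. The column names also carry a running library number in blocks by group, so library order and group cannot be told apart. In T3WT 15282 ± 45.5 genes had a count, against 14805 ± 52.2 in contWT (SD, n = 3). The number was 14805 ± 40.1 in T3Homo and 14846 ± 63.2 in contHomo, so T3WT alone stood apart. The mean TMM factor was 1.22 in T3WT and 0.922 in contWT, with 0.955 in T3Homo and 0.931 in contHomo. Library totals ran from 34322099 to 44755390 counts.

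TRα is a nuclear receptor that sits on DNA with and without hormone. Without T3 it recruits corepressors to its target genes, and with T3 it recruits coactivators. How T3 lowers the RNA of other genes is less direct, and such genes can be lowered through the products of induced genes. In the intestine of a metamorphosing tadpole the larval epithelium degenerates and an adult epithelium forms from newly arising stem cells. RNA of whole intestine mixes these epithelial cells with muscle, connective tissue and blood. A lower level can mean fewer cells of a type or less RNA per cell, and these cannot be told apart in bulk samples.

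The summed level of the 160 genes was 45431, 45028 and 45849 CPM in the 3 T3WT libraries, against 96716, 96608 and 98641 CPM in the contWT libraries. It was 74329, 74997 and 74750 CPM in the T3Homo libraries, against 82530, 82347 and 83042 CPM in the contHomo libraries. The T3WT libraries were thus the lowest and the contWT libraries the highest, and no library of a group reached the range of another group. The summed level in T3WT was 0.467 of that in contWT, that in T3Homo 0.904 of that in contHomo, and that in contHomo 0.849 of that in contWT. As a share of raw counts, the genes took 5.54 ± 0.0364% in T3WT and 8.98 ± 0.0276% in contWT (SD, n = 3). They took 7.14 ± 0.0216% in T3Homo and 7.69 ± 0.00522% in contHomo.

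The median member stood at 26.0 CPM in T3WT and 58.3 CPM in contWT. In T3Homo the median was 48.7 CPM and in contHomo 55.2 CPM. Members ranged widely, with group means in contWT between 0.983 and 4835 CPM. Depth was ample for nearly all of them. The counts of a member summed over the 12 libraries ran from 727 to 1643606, with a median of 21215, and 159 of the 160 had at least 10 counts in every library. All 160 passed the filter on low counts. Between libraries of a group the median coefficient of variation of a member was 2.75% in T3WT, 2.22% in contWT, 1.96% in T3Homo and 1.88% in contHomo.

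**Figure D1:**
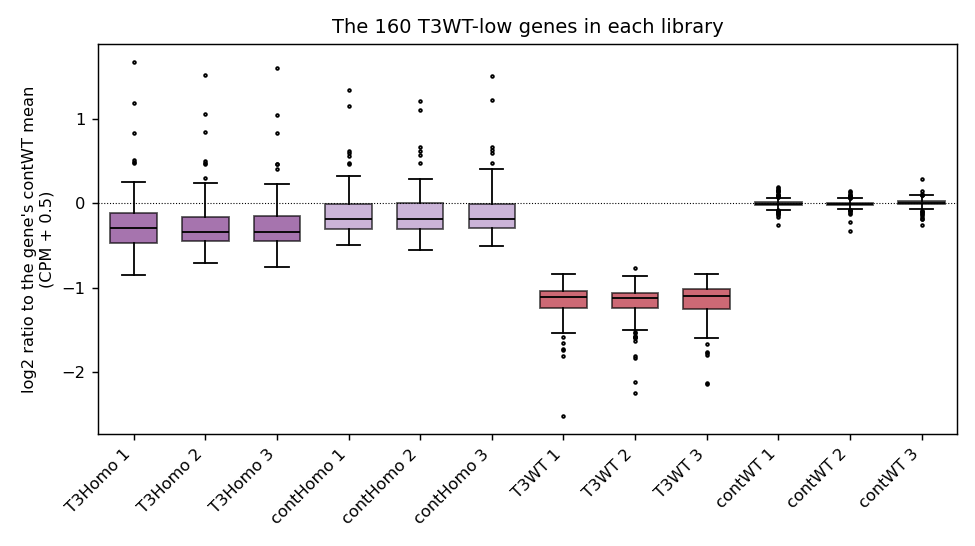
Log2 ratio of each T3WT-low gene to its own contWT mean (vertical axis, CPM + 0.5) in each of the 12 libraries, as boxes over the 160 genes with the median line, whiskers to 1.5 times the interquartile range and points beyond. The median lines lie near -1.1 in T3WT, between -0.34 and -0.29 in T3Homo and between -0.19 and -0.18 in contHomo. T3Homo and contHomo thus sit below contWT for most of the genes.

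Most members passed the first limit by a small margin. The T3WT to contWT log2 ratio had a median of -1.1, with a lower quartile of -1.249 and an upper one of -1.04, against a median of -0.03 over all 10677 genes at the level minimum. Only 11 members were at -1.5 or below and 2 at -2 or below. Just inside the limit, 80 members lay between -1.1 and -1, with a median of -1.04. Just outside, 88 genes that met the other conditions lay between -1 and -0.9, with a median of -0.94. As many as 194 genes lay between -1 and -0.8. The limit therefore cuts through a continuous slope of genes.

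**Figure D2:**
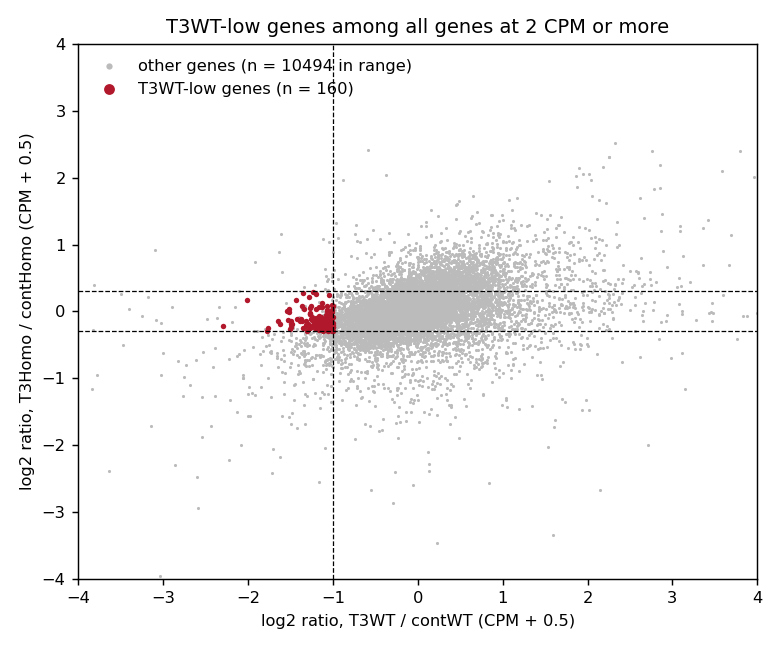
Log2 ratio of T3WT to contWT (horizontal axis) against log2 ratio of T3Homo to contHomo (vertical axis), both of CPM + 0.5, for genes with a highest group mean of at least 2 CPM. Red points are the 160 T3WT-low genes, grey points other genes within 4 log2 units, and dashed lines the limits of -1 and ±0.3. The red points crowd against the -1 line and lie mostly below 0 on the vertical axis.

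The T3Homo to contHomo ratio was small by the rule, yet it leaned to 1 side. Its median was -0.15, with quartiles of -0.22 and -0.10, against a median of 0.02 over the genes at the level minimum. It was below 0 in 137 members and above 0 in 23. With RLE factors 18 members were above 0, and at total-count scaling 28. Just inside the limit of 0.3, 29 members had a ratio of 0.25 to 0.3 in size. Just outside, 23 genes that met the other conditions had one of 0.3 to 0.35 in size. In 118 members all 3 T3Homo libraries lay below all 3 contHomo libraries, where 34.1% of the genes at the level minimum did so. In 14 members they lay above, where the background was 38.5%. At an adjusted p below 0.05 without a fold limit, edgeR's quasi-likelihood test put 116 members lower in T3Homo, against 31.1% of the 13172 genes tested, and 12 higher, against 32.3%. In either direction 128 members passed, against 63.4% of genes tested. The rule used this contrast, so these counts describe the members only. Nearly level here means within 0.3 log2 units, while the median SE of this fold change over the members was 0.03.

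The contHomo to contWT ratio was bounded directly by the rule from below only. Its median was -0.17, and it was below 0 in 119 members and above 0 in 41. With RLE factors or at total-count scaling 43 were above 0. Just inside the limit of -0.5, 16 members lay between -0.5 and -0.4, and 6 genes just outside lay between -0.6 and -0.5. At an adjusted p below 0.05 without a fold limit, edgeR put 97 members lower in contHomo, against 28.5% of genes tested, and 25 higher, against 24.5%. With the added fold limit of 2, contHomo was called higher in 2 members, where 3.11% of all genes were called. The first limit of the rule uses the same contWT mean, so it can favour genes high in contWT and pull this ratio down. These counts therefore describe the members only.

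The order of the 4 group means was the same in most members. In all 160 T3WT was the lowest, and in all 160 each T3WT library lay below each of the 9 other libraries. Of the genes at the level minimum 29.6% had that arrangement. The limits of the rule force T3WT to be the lowest group mean in every member. With the small spread between libraries, most of the separation follows from this, so neither count is support for the pattern. In 105 members (65.6%) contWT was highest, followed by contHomo, T3Homo and T3WT. The first limit can favour a high contWT mean and the second keeps T3Homo near contHomo, so the rule shapes this order too. These 105 had a median T3WT to contWT log2 ratio of -1.09, a median T3Homo to contHomo ratio of -0.18 and a median contHomo to contWT ratio of -0.25. In 11 members contWT was highest and T3Homo lay above contHomo. In 32 members contHomo was highest, and in 12 T3Homo was highest. The genes with contHomo highest were less abundant, with a median mean level of 22.9 CPM over the 12 libraries, than the 105 of the common order, at 76.5 CPM.

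T3Homo therefore seldom reached the contWT level. The T3Homo to contWT log2 ratio had a median of -0.33, and 138 of the 160 members were lower in T3Homo than in contWT. This ratio too shares the contWT mean used by the first limit, so it describes the members only. The T3Homo to T3WT ratio had a median of 0.82, with a range from 0.38 to 2.96. T3Homo was called higher than T3WT in 51 members at an adjusted p below 0.05 and at least a 2-fold difference, where 2.76% of the 13172 genes tested were called. T3WT was called lower than contWT in 158 members, against 5.14% of genes tested. The other 2 had fitted values just short of the fold limit. The interaction is the T3Homo to contHomo log2 change less the T3WT to contWT one, and both readings of the labels give it the same value. It ran from 0.71 to 3.81 over the members with a median of 0.99. It was called positive in 75 of them, against 3.24% of genes tested. At total-count scaling the 3 counts were 27 for T3WT lower than contWT, 21 for T3Homo higher than T3WT and 22 for the interaction. Over all genes tested at that scaling, 271, 182 and 180 were called. The rule fixed the direction in each of these contrasts and most of its size, so none of these counts is support for the pattern.

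Among the members with a group mean of at least 5 CPM, ENSXETG00000031156 had the lowest T3WT to contWT ratio. It is a gene of 13 exons and 2065 exon bases on the minus strand of scaffold GL175363.1, from 7952 to 12108 in the coordinates of the deposited table. It had 4.77, 4.43 and 4.61 CPM in the T3WT libraries, against 17.4, 17.1 and 16.7 CPM in the contWT libraries. It had 18.0, 17.6 and 16.6 CPM in the T3Homo libraries, against 21.4, 20.3 and 22.8 CPM in the contHomo libraries. The T3WT libraries stood far below the rest, and T3Homo overlapped contWT. The fitted log2 fold change of T3WT to contWT was -1.88 ± 0.06 (SE), that of T3Homo to contHomo -0.31 ± 0.05, and that of contHomo to contWT 0.33 ± 0.05. Its ratio of -0.297 between T3Homo and contHomo is the one nearest to the limit of 0.3 on the negative side.

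The next was ENSXETG00000026010, with 7 exons and 801 exon bases on the minus strand of GL173088.1, from 829034 to 839619. It had 77.2, 73.1 and 75.6 CPM in the T3WT libraries, against 260.2, 256.2 and 257.0 CPM in the contWT libraries. It had 302.9, 303.9 and 303.1 CPM in the T3Homo libraries, against 360.8, 359.7 and 359.0 CPM in the contHomo libraries. None of the 4 groups overlapped another, and both Homo groups were above contWT. The fitted log2 fold change of T3WT to contWT was -1.77 ± 0.02 (SE), a 3.42-fold lower mean, and that of contHomo to contWT was 0.48 ± 0.02. At total-count scaling the T3WT to contWT log2 ratio was -1.37.

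The members with the highest contHomo to contWT ratio at that level had the same order of group means as the 2 genes above. In all 4 contHomo was highest, followed by T3Homo, contWT and T3WT. In the whole set contHomo was highest in only 32 of the 160 members. The excess of contHomo over contWT was larger in the next 2 genes. ENSXETG00000001660, with 9 exons on the plus strand of GL172794.1 from 1872154 to 1878937, had 12.2, 12.8 and 12.9 CPM in the contHomo libraries, against 4.94, 5.79 and 4.96 CPM in the contWT libraries. It had 12.6, 11.4 and 11.3 CPM in the T3Homo libraries, against 2.34, 1.71 and 1.69 CPM in the T3WT libraries. Both Homo groups lay above both WT groups, and T3Homo overlapped contHomo. The fitted log2 fold change of contHomo to contWT was 1.27 ± 0.07 (SE), that of T3Homo to T3WT 2.61 ± 0.09 and that of T3WT to contWT -1.46 ± 0.11. This gene is thus higher in the libraries labelled Homo at either treatment, besides being low in T3WT.

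ENSXETG00000025544 was more abundant. It has 14 exons on the minus strand of GL172900.1, from 697028 to 710785. It had 1182, 1224 and 1224 CPM in the contHomo libraries, against 769, 771 and 773 CPM in the contWT libraries. It had 1084, 1092 and 1068 CPM in the T3Homo libraries, against 335, 346 and 342 CPM in the T3WT libraries. The 4 groups were separate, with contHomo highest and T3WT lowest. The fitted log2 fold changes were 0.65 ± 0.02 (SE) for contHomo to contWT and -1.17 ± 0.02 for T3WT to contWT.

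**Figure D3:**
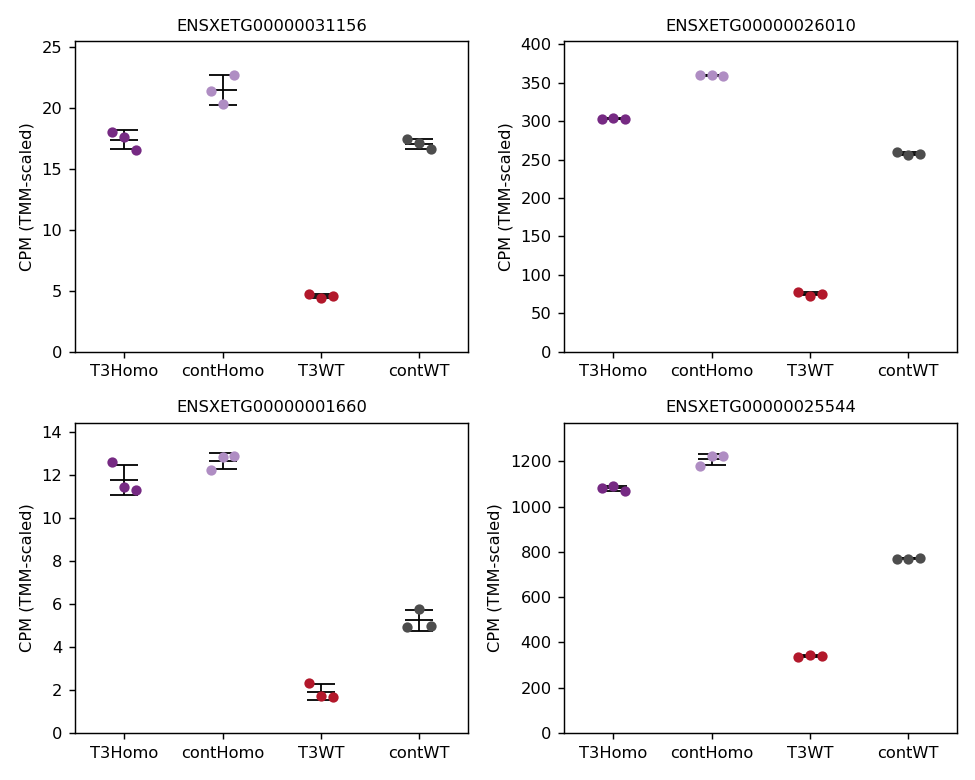
CPM with TMM factors (vertical axes, from 0) of the 4 members given by identifier, in T3Homo, contHomo, T3WT and contWT. Points are the 3 libraries of a group and bars the mean ± SD; in each panel the T3WT points are the lowest, and contHomo lies above contWT.

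Few members had a contHomo level far above contWT. The contHomo to contWT log2 ratio exceeded 0.3 in 7 members and 0.5 in 5. In 22 members all 3 contHomo libraries lay above all 3 contWT libraries, where 29.2% of the genes at the level minimum did so. The first limit shares the contWT mean and can pull this ratio down, so these counts describe the members only. A gene of 20 exons on the minus strand of GL172725.1, from 477624 to 509352, had a profile close to that of ENSXETG00000025544. Its mean was 773 ± 3.23 CPM in T3WT and 1720 ± 19.5 CPM in contWT, with 2383 ± 14.6 CPM in T3Homo and 2639 ± 33.3 CPM in contHomo (SD, n = 3). Another abundant gene, with 8 exons on the plus strand of GL173493.1 from 263805 to 271873, had 200 ± 1.38 CPM in T3WT and 460 ± 4.8 CPM in contWT. It differed in being highest in T3Homo, at 824 ± 4.13 CPM, against 689 ± 7.96 CPM in contHomo. Both were singled out after looking at their values.

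The least abundant of these lay on the plus strand of GL172691.1, from 664868 to 670215, and was likewise singled out. It has 5 exons. It had 1, 5 and 5 counts in the T3WT libraries, against 34, 24 and 43 counts in the contWT libraries. In T3Homo it had 182, 155 and 154 counts, against 119, 88 and 141 counts in contHomo. Its mean level was 0.0801 CPM in T3WT, 0.983 CPM in contWT, 4.01 CPM in T3Homo and 3.23 CPM in contHomo. It met the level minimum through T3Homo and contHomo, so the T3WT to contWT difference was measured at low counts, with a fitted log2 fold change of -3.52 ± 0.36 (SE). The added 0.5 CPM reduced its rule value to -1.35.

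With 0.5 CPM added, the lowest T3WT to contWT ratios belonged to 2 rare transcripts below 5 CPM, singled out for that. Their fitted log2 fold changes, -3.23 ± 0.17 and -2.89 ± 0.17 (SE), were smaller in size than that of the gene on GL172691.1. The first, with 5 exons on the plus strand of GL172733.1 from 2571043 to 2574588, had 0.420 ± 0.123 CPM in T3WT and 4.02 ± 0.548 CPM in contWT (SD, n = 3). It had 2.60 ± 0.394 CPM in T3Homo and 3.09 ± 0.238 CPM in contHomo. The other, with 10 exons on the plus strand of GL173503.1 from 265567 to 277410, had 0.451 ± 0.126 CPM in T3WT and 3.33 ± 0.259 CPM in contWT. It had 3.85 ± 0.0815 CPM in T3Homo and 3.35 ± 0.244 CPM in contHomo. In both genes the T3WT libraries were lowest.

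Abundant genes were common among the members. A mean level of at least 500 CPM over the 12 libraries was reached by 40 of the 160 (25%), against 284 of the 10677 genes at the level minimum (2.66%). Members were 0.749% of the 4671 genes under 10 CPM, 1.15% of the 4959 genes from 10 to 100 CPM, 3.67% of the 763 genes from 100 to 500 CPM and 14.1% of the 284 abundant genes. The 40 abundant members held 88.2% of the summed contWT level, and the 10 highest held 37.6%. Levels enter the rule through the minimum and through the added 0.5 CPM, which shrinks the ratios of low genes. The median T3WT to contWT log2 ratio over all genes at the level minimum also fell with level. It was 0.17 under 10 CPM, -0.11 at 10 to 100 CPM, -0.26 at 100 to 500 CPM and -0.69 at 500 CPM or more. The shares are therefore given without a test.

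The middle range of the abundant members was narrow, and the -1 limit bounds its T3WT to contWT side. Among the abundant members, ENSXETG00000025544 and the genes on GL172725.1 and GL173493.1 lay far outside it. Their contHomo to contWT log2 ratios were 0.65, 0.62 and 0.58. In the 40, the quartiles of the T3WT to contWT log2 ratio were -1.14 and -1.03, and those of the contHomo to contWT ratio were -0.34 and -0.23. In the 35 members under 10 CPM the quartiles of the contHomo to contWT ratio were -0.18 and 0.08. The 15 members with the highest contWT level had 2297 to 4835 CPM there and 937 to 2289 CPM in T3WT. The contHomo to contWT ratios of these 15 all fell between -0.43 and -0.21. They were ranked by contWT, the denominator of this ratio, so the ranking itself favours low ratios. The most abundant of all in contWT, with 6 exons and 821 exon bases on the plus strand of GL172798.1 from 260991 to 268061, had 2240 ± 30.8 CPM in T3WT and 4835 ± 109 CPM in contWT. It had 3380 ± 15 CPM in T3Homo and 3977 ± 21.5 CPM in contHomo (SD, n = 3).

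Exon length was not used by the rule, and it set many members apart in the description. The median summed exon length was 1368 bases over the 160 members and 1854 bases over the genes at the level minimum, with a median of 8 exons against 10. Lengths under 1000 bases were found in 59 members (36.9%), against 16.3% of the genes at the level minimum. The share of short genes was higher among members in every level class, though the lower classes held few short members. Under 10 CPM it was 22.9% of members (8 of 35), near the 17.8% of other genes. At 10 to 100 CPM it was 22.8% (13 of 57) against 13.6%, and at 100 to 500 CPM 32.1% (9 of 28) against 13.6%. At 500 CPM or more, 29 of the 40 members (72.5%) were under 1000 bases, against 86 of the 244 other genes (35.2%), and the medians were 659 and 1412 bases. At 10 to 100 CPM the medians were 1767 bases in members and 1989 bases in other genes. Most abundant members thus had a short annotated exon length, though 11 of the 40 had 1000 bases or more. The 40 had a median of 5.5 exons. Per kilobase of exon, the median contWT level was 42.5 CPM in the members and 6.67 CPM in the genes at the level minimum. The first limit can favour genes high in contWT, so a comparison at contWT favours the members.

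**Figure D4:**
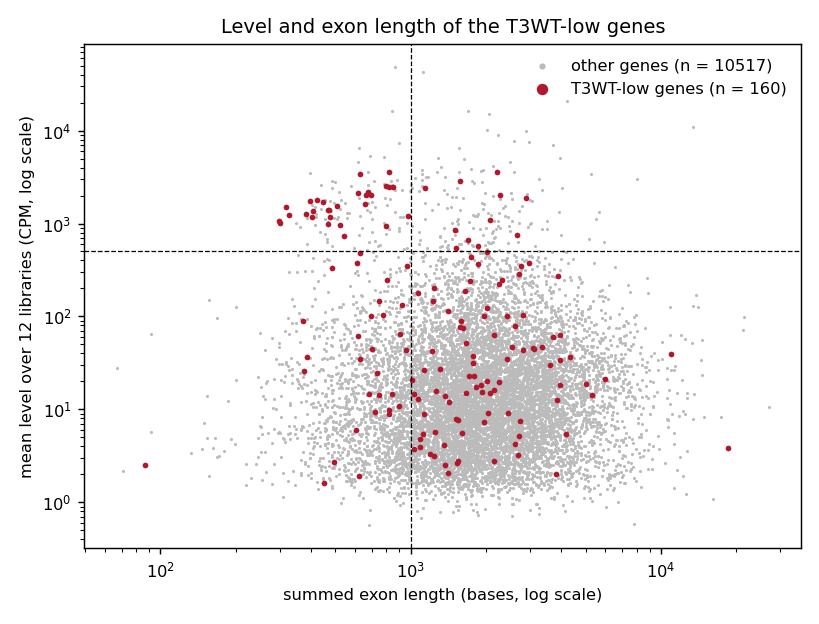
Summed exon length in bases (horizontal log axis) against the mean level over 12 libraries in CPM (vertical log axis) for genes with a highest group mean of at least 2 CPM. Red points are the 160 T3WT-low genes, and dashed lines mark 1000 bases and 500 CPM. A group of 29 red points lies in the upper left, among short and abundant genes, and the rest are scattered through the cloud.

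Short abundant genes were low in T3WT well beyond the 160. Of the 115 genes at 500 CPM or more with under 1000 exon bases, 68 (59.1%) had a T3WT to contWT log2 ratio between -1.2 and -0.8. Only 27 of those 68 were members. The median of the 115 was -0.94, against -0.45 for the 169 abundant genes of 1000 bases or more. At total-count scaling the medians were -0.54 and -0.04. In all, 69 abundant genes were at -1 or below. Of these, 40 were members, 24 were left out because T3Homo was lower than contHomo by 0.3 or more, 3 because it was higher by as much, and 2 by the contHomo to contWT limit. The range from -1.2 to -0.8 spans the -1 limit, so its genes above -1 lay outside the set by the rule. Of the 45 short abundant genes at -1 or below, 29 were members.

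**Figure D5:**
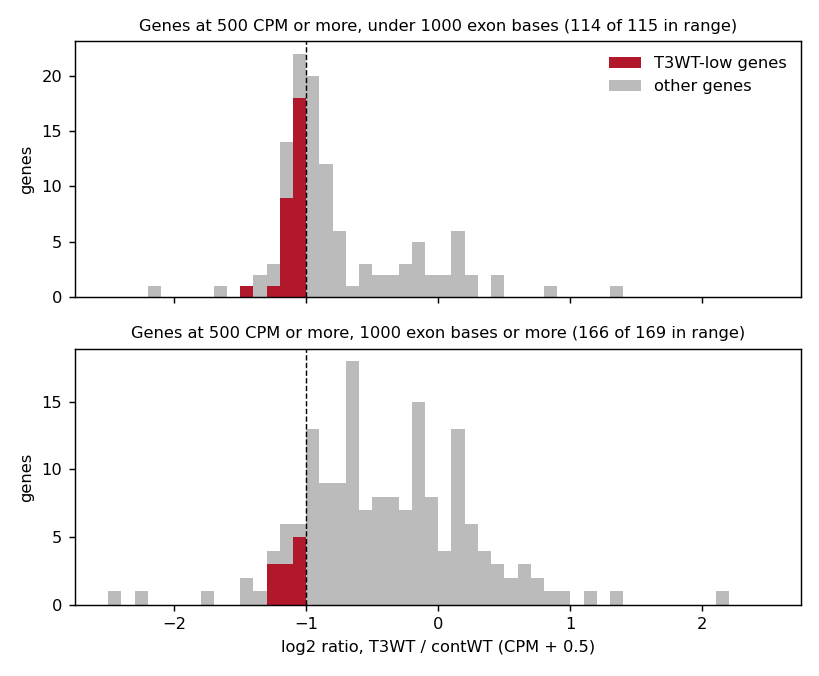
Number of genes (vertical axis) by log2 ratio of T3WT to contWT (horizontal axis, bins of 0.1) among genes at 500 CPM or more, split at 1000 exon bases. Red marks T3WT-low genes and grey other genes. The short genes pile up on both sides of the -1 limit, with a median of -0.94, while the longer genes spread more widely.

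The members lay on 138 scaffolds, 86 on the plus and 74 on the minus strand, and 17 scaffolds held 2 or more. The genes at the level minimum lay on 1508 scaffolds. In the gene order 3 pairs of members were next to each other, and 5 pairs lay within 100 kb. Whether these are few or many for a set of this size was not tested. On GL172888.1 a gene of 16 exons, from 825019 to 847345, lay 7.46 kb from a gene of 8 exons on the other strand, from 854808 to 875392. The first had 13.9 CPM in T3WT and 44.9 CPM in contWT, with 43.9 CPM in T3Homo and 48.7 CPM in contHomo. The second had 54.1 CPM in T3WT and 109 CPM in contWT, with 101 CPM in T3Homo and 95.6 CPM in contHomo. The neighbours differed in size of change, with T3WT to contWT log2 ratios of -1.65 and -1.005.

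The pair on GL172876.1 had 3 exons from 1003680 to 1008371 and 8 exons from 1021093 to 1029200, both on the plus strand. Their T3WT to contWT log2 ratios were close, at -1.22 and -1.16, though their contWT levels were 14.4 and 171 CPM. The pair on GL173117.1 was rare, with contWT means of 3.59 and 2.02 CPM and log2 ratios of -1.002 and -1.005. No 2 members shared their whole set of exon lengths. The spans of 17 members overlapped another annotated gene, in 7 cases on the opposite strand. Spans include introns, so an overlap of spans need not be an overlap of exons. Where exons of those 7 overlap the other gene, reads cannot be separated without a known strand setting.

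Sets with opposite or related patterns were set beside the members. The mirror rule, a T3WT to contWT log2 ratio of at least 1 with the other limits mirrored, gave 181 genes. The median mean level was 46.6 CPM in the T3WT-low genes and 3.00 CPM in the 181. At 500 CPM or more stood 40 of the T3WT-low genes and 0 of the 181. Part of this gap in level is built in. The 181 meet the level minimum through T3WT, and most libraries in their mean are ones where they are low. For the T3WT-low genes most libraries in the mean are ones where they are high. Under 1000 bases were 59 of the T3WT-low genes (36.9%) and 25 of the 181 (13.8%). A log2 ratio of at least 2 in size was found in 2 of the 160 T3WT-low genes and in 39 of the 181 (21.5%). A fall limited to the T3Homo and contHomo pair, with the same limits exchanged between the pairs, was met by 33 genes, with a median mean level of 6.59 CPM. A log2 ratio of -1 or below in both pairs was met by 57, with a median of 15.5 CPM. Of these 57 genes 6 (10.5%) were at 500 CPM or more, a share below the 25% of the T3WT-low genes and above the 2.66% of genes at the level minimum. Under 1000 bases were 7 of the 57 (12.3%). The nearest set was the 194 genes with a T3WT to contWT log2 ratio between -1 and -0.8 that met the other conditions. At 500 CPM or more stood 50 of the 194. Their medians were 53.9 CPM in mean level and 1449.5 exon bases, against 46.6 CPM and 1368 bases in the T3WT-low genes. High level was thus not particular to the 160. All of these sets were chosen on the same libraries, so the differences carry no test.

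Libraries that took no part in the choice showed how far library noise moved single members across the limits. When the rule was applied to the libraries numbered 1 and 2 of each group, 158 genes were chosen. In the libraries numbered 3, 115 of these (72.8%) met every limit, 132 were at -1 or below in T3WT to contWT, and 144 at -0.9 or below. The median held-out ratio was -1.09. With the libraries numbered 1 held out, 107 of 153 met every limit, and with those numbered 2 held out, 114 of 153 did. The highest held-out ratio of T3WT to contWT in the 3 rounds was -0.44, so it was negative for every chosen gene. With the small spread between libraries of a pool, that sign was nearly fixed by the choice and is no support for the pattern. The held-out libraries come from the same RNA pools and say nothing about other tadpoles.

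The size of the set depends on the scaling of the T3WT libraries. At total-count scaling, without TMM factors, the median T3WT to contWT log2 ratio over the genes at the level minimum was 0.36 in place of -0.03, and that of the 160 members was -0.71. All 160 stayed below 0 with TMM, RLE and total-count scaling. Only 20 were at -1 or below at total-count scaling. The median of the members minus that of all genes at the level minimum was -1.07 under each of the 3. A change of factors moves all genes of a library nearly alike, so this difference is fixed by construction and is no sign of stability. Which scaling is closer to the RNA content per cell was not tested.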

How the data were processed

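The authors deposited whole-number read counts per gene, not normalized, for 19921 genes in 12 libraries. Per the submitters' processing notes, the tools were STAR 2.5.3a (an aligner) and featureCounts 1.4.6-p3 (a counter). Their strand setting, handling of multi-mapped reads, annotation release and genome build were not given in the sources used here. Levels are CPM from edgeR 4.0.16 in R 4.3.3 with TMM factors over all genes, and ratios are log2 of group means plus 0.5 CPM. Tests across genes used edgeR's quasi-likelihood test on 13172 genes left by filterByExpr, with 1 coefficient per group and Benjamini-Hochberg adjustment. The SE of a fitted fold change is its size divided by the square root of the test's F value. A call needs an adjusted p below 0.05 and a log2 fold change of at least 1 in size. DESeq2 1.42.0, RLE factors, total-count scaling, other limits, a replicate block and left-out libraries were alternatives. The code was tested on simulated data. Library pairs of a group differed beyond sampling noise (chi-square statistic per gene from 1.26 to 1.88), so none was a repeat deposit. They are still technical libraries of 1 pool per group, and the tests treat them as replicates of that pool only. Deviations of same-numbered libraries had correlations of -0.02 to 0.04, and those of differently numbered ones -0.05 to 0.04. No pairing by number was seen, though a weak one could go unseen. Members and lists were chosen with earlier results of these data known. The 7 gene lists and the marker sets could not be read, since 0 identifiers matched a symbol. Genes given by identifier were the 2 with the lowest T3WT to contWT ratio and the 2 with the highest contHomo to contWT ratio, at 5 CPM or more. Others appear by position, as neighbours or as chosen after their values were seen.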

Additional observations from a re-analysis of the deposited data

Results flagged for a closer look

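The T3WT to contWT and T3Homo to contHomo differences were unlike each other in 75 of the 160 T3WT-low genes by edgeR's interaction test. The call needed an adjusted p below 0.05 and at least a 2-fold difference, and 3.24% of the 13172 genes tested were called positive. Over all 160 the log2 interaction ran from 0.71 to 3.81 with a median of 0.99, so members not called were not alike either. The rule chose genes for this contrast, so the count adds nothing independent of the choice.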

How the results depend on the processing

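Against the 160 members, total-count scaling gave 20, of which 19 were among the 160. A limit of 0.2 in place of 0.3 for the T3Homo to contHomo ratio gave 102. Groups named by the titles gave 4, with 0 shared. Under that naming the first limit falls on the contHomo to contWT ratio, which the rule already keeps above that limit in every member. The 0 shared was therefore fixed by construction and cannot show how the members behave under the titles. The other 8 alternatives of the rule gave 118 to 236. Leaving out 1 library at a time gave 147 to 164 members, at least 143 of them shared, and leaving out 1 number from every group gave 153 to 161. At total-count scaling 27 members were called lower in T3WT than in contWT, 21 higher in T3Homo than in T3WT, and 22 in the interaction. Over all genes tested, 271, 182 and 180 were called. This scaling shifts all genes upward in T3WT by construction. Leaving out 1 library gave 149 to 160, 51 to 54, and 75 to 80 members for the same 3 counts. It gave 2 for contHomo higher than contWT each time, and 123 to 129 for T3Homo against contHomo at an adjusted p below 0.05. Counts over all genes were not taken for the left-out libraries. With the replicate block, 158, 51, 2, 75 and 128 members passed in the 5 counts, as without it. Over all genes 681, 363, 406, 423 and 8381 passed with the block. With DESeq2 the 5 counts were 160, 55, 2, 80 and 120, and over all genes 785, 434, 410, 436 and 7177. Depth limits 1 member, with under 10 counts in T3WT libraries. The 3 libraries of a group share a pool, so differences between tadpoles are not measured.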
